A study of Mus musculus with 14 samples.

Results

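The genes described here are the translation initiation factors of mouse embryonic stem (ES) cells, together with the kinases and binding proteins that control them. Members were taken by name, from symbols that start with Eif and a digit from 1 to 6, with pseudogenes left out. The rule gave 55 of the 54446 genes in the RNA-seq tables. Of these, 52 passed the filter of a mean of at least 1 TPM (a read share corrected for transcript length) on the spike-in scale and were tested with the 18232 genes that passed it. The members comprised 4 eIF1 genes, 12 eIF2 genes, 4 eIF2-alpha kinases, 14 eIF3 genes, 13 eIF4 genes, 3 4E-BPs, 4 eIF5 genes and 1 eIF6 gene.

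RNA was profiled in 14 libraries of E14 mouse ES cells, grown without feeders in serum and LIF. Wild-type (WT) cells were collected untreated (0 h) and after 24, 72 and 144 h with an mTOR inhibitor (mTORi). The study's methods name INK128 or RapaLink-1 for such treatment. Tet1/2 DKO cells, which lack the DNA demethylases TET1 and TET2 and come from a single sorted cell after Cas9 editing of the same background, were collected at 0, 24 and 72 h. Each of the 7 groups had 2 replicates, and all groups share the E14 background, so that a difference between DKO and WT is also a difference between cell lines.

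Initiation assembles a ribosome on an mRNA. The cap-binding eIF4E, the scaffold eIF4G and the RNA helicase eIF4A form the eIF4F complex, which recruits the small subunit through eIF3, while eIF2 delivers the initiator tRNA as a complex with GTP and is recharged by the exchange factor eIF2B. mTORC1 acts on this machinery by phosphorylating the 4E-BPs, which otherwise hold eIF4E away from eIF4G, and stress kinases act by phosphorylating eIF2-alpha, which blocks eIF2B. These are events on proteins, and the data here measure RNA.

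Short stretches around the transcription starts of the members show which promoters carry sequences known from growth and translation control. RefSeq (GRCm38.p6) gave a promoter, from 250 bases before to 50 bases after the annotated start, for 44 of the 55 members. CACGTG, the E-box bound by MYC and by TFE3-type factors, reads the same on both strands. It was present in 10 of the 44 (22.7%), against 8.1% of 27025 genes with a promoter of the same length. The 6 windows below belong to eIF4F components, its cofactor eIF4H, an eIF3 subunit and eIF5A, with the E-box in capitals.
Eif4e, chr3:138527194-138527223, plus strand: acacgtccgtCACGTGggcaggagccggcc
Eif4a1, chr11:69672593-69672622, minus strand: atcgcctccgCACGTGtaaaggtgctgggt
Eif4g1, chr16:20672663-20672692, plus strand: cagtgggtgtCACGTGatggggcggagcaa
Eif4h, chr5:134639486-134639515, minus strand: gccgccgcacCACGTGggccgcagagcgcg
Eif3a, chr19:60790652-60790681, minus strand: gcgagggaatCACGTGgttccttcctttcc
Eif5a, chr11:69921441-69921470, minus strand: ggggcggggtCACGTGtgtgcgtcatccga
A second set shows starts that begin with C followed by at least 4 C or T, the letters of the 5′ terminal oligopyrimidine (TOP) tract through which mTORC1 controls translation of ribosomal protein mRNAs. Such a tract began at the annotated start itself in 3 of 44 members (6.8%, against 3.0% of all genes) and within 5 bases of it in 14 (31.8%, against 21.2%). The tracts of an eIF3 subunit and of the X- and Y-linked copies of eIF2-gamma are in capitals.
Eif3f, chr7:108934405-108934434, plus strand: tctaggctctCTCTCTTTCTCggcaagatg
Eif2s3x, chrX:94212632-94212661, minus strand: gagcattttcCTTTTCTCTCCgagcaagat
Eif2s3y, chrY:1010586-1010615, plus strand: gccacagccaCTTCCTTCTTTCgtgagcaa
TGATGCAA, the response element of ATF4 with C/EBP factors, was searched on both strands and found in 0 of 44 members and in 1.0% of all genes. A match or its absence describes these letters in this window and nothing about a factor.

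The choice between a pair of scales changed results. The deposited TPM sum to the same total in every library. Spike-in normalized TPM multiply them by 1 factor per library, which the study derived from ERCC RNAs added to RNA from a fixed number of sorted cells. The factor was 2.11 in both WT libraries at 0 h, 1.0 and 1.07 at 144 h, and differed most between replicates in DKO cells at 24 h (1.36 and 2.24). Across the 18232 genes tested, the median spike-in log2 fold change against 0 h amounted to −0.33, −0.33 and −0.83 in WT (24, 72, 144 h) and to −0.49 and −0.12 in DKO cells (24, 72 h). In deposited TPM these medians lay between −0.0077 and 0.14. Fewer cells yielding RNA and less RNA per cell cannot be told apart. All 7 ES cell markers checked (Pou5f1, Sox2, Nanog, Zfp42, Esrrb, Tfcp2l1, Klf4) stood at 66.4 deposited TPM or more in every library. Their sum in WT was 2520 to 2560 at 0 h, 2880 to 2960 at 24 h, 2510 to 2620 at 72 h and 2800 to 2880 at 144 h. In DKO cells it was 2510 to 2670 at 0 h, 2610 to 2670 at 24 h and 2280 to 2410 at 72 h. It was thus higher at 24 and 144 h in WT and lower at 72 h in DKO cells without overlap. The summed deposited TPM of 6 primitive endoderm markers was 66.1 to 116 in WT at 24 h against 8.47 to 21.7 at 0 h. In DKO cells that sum was 17.6 to 48.5 at 24 h, overlapping with 8.59 to 24.4 at 0 h. Other markers were lower at 24 h without overlap, with summed deposited TPM of 3 neuroectoderm markers from 14.7 to 17.4 at 0 h against 6.82 to 8.24 in WT and from 11.4 to 13.5 against 5.35 to 6.44 in DKO cells. The sum of 3 fibroblast markers was 5.65 to 8.2 against 1.28 to 2.78 in WT and 10.5 to 17.6 against 2.68 to 7.35 in DKO cells. At 72 h the sum of 5 trophectoderm markers was 9.7 to 12.8 in WT and 12.7 to 15.3 in DKO cells, against 21.5 to 44.8 and 20.2 to 41.8 at 0 h, and the fibroblast sum was 2.99 to 4.72 in WT and 4.89 to 7.39 in DKO cells. The neuroectoderm sum in WT was 10.7 in the lower library at 72 h, and both libraries lay below the 0 h range. At 144 h in WT the sums of primitive endoderm (5.36 to 6.0), trophectoderm (20.3 to 21.4), neuroectoderm (12.8 to 13.7) and fibroblast markers (4.5 to 5.63) each lay below their 0 h range, while 3 mesendoderm markers summed to 2.01 to 2.08 against 1.15 to 1.87 at 0 h. In DKO cells at 72 h the mesendoderm sum was 2.24 to 2.57 against 1.12 to 1.61, so that it was higher without overlap in both cases. The part of these markers in the results at any time was not tested. Tet2 was lower in DKO cells at every time (log2 fold change −1.93, −2.52 and −2.06, limma adjusted p = 0.015, 0.00029 and 0.0023), whereas Tet1 RNA was not called on this scale (−0.08, −0.42 and 0.11) and was called in deposited TPM at 24 h (−0.51, adjusted p = 0.024).

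Initiation factor RNAs made up 1.22% and 1.28% of all deposited TPM in the WT libraries at 0 h and between 0.988% and 1.12% in the 6 WT libraries under mTORi, with no overlap. In DKO cells the share was 1.27% and 1.38% at 0 h and between 1.05% and 1.18% in the 4 treated libraries. The eIF5 class, most of it Eif5a, had its lowest share at 24 h. In WT it was 0.148% and 0.157% at 0 h, 0.0914% and 0.0976% at 24 h, then 0.123% and 0.126% at 144 h. DKO cells gave 0.156% and 0.174% at 0 h, then 0.0869% and 0.0936% at 24 h. The eIF2 class behaved differently: WT libraries held 0.170% and 0.179% at 0 h, 0.160% and 0.183% at 24 h, then 0.126% and 0.127% at 144 h, so that its share overlapped with untreated cells at 24 h and lay below them later. The eIF4 class, the largest, held 0.433% and 0.463% at 0 h in WT, 0.412% and 0.417% at 24 h, 0.429% and 0.397% at 72 h, then 0.428% and 0.442% at 144 h, so that it lay below untreated cells at 24 and 72 h and overlapped with them at 144 h. In DKO cells it was 0.438% and 0.472% at 0 h, then 0.374% and 0.399% at 24 h and 0.409% and 0.435% at 72 h, below the untreated libraries at both times.

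**Figure D1:**
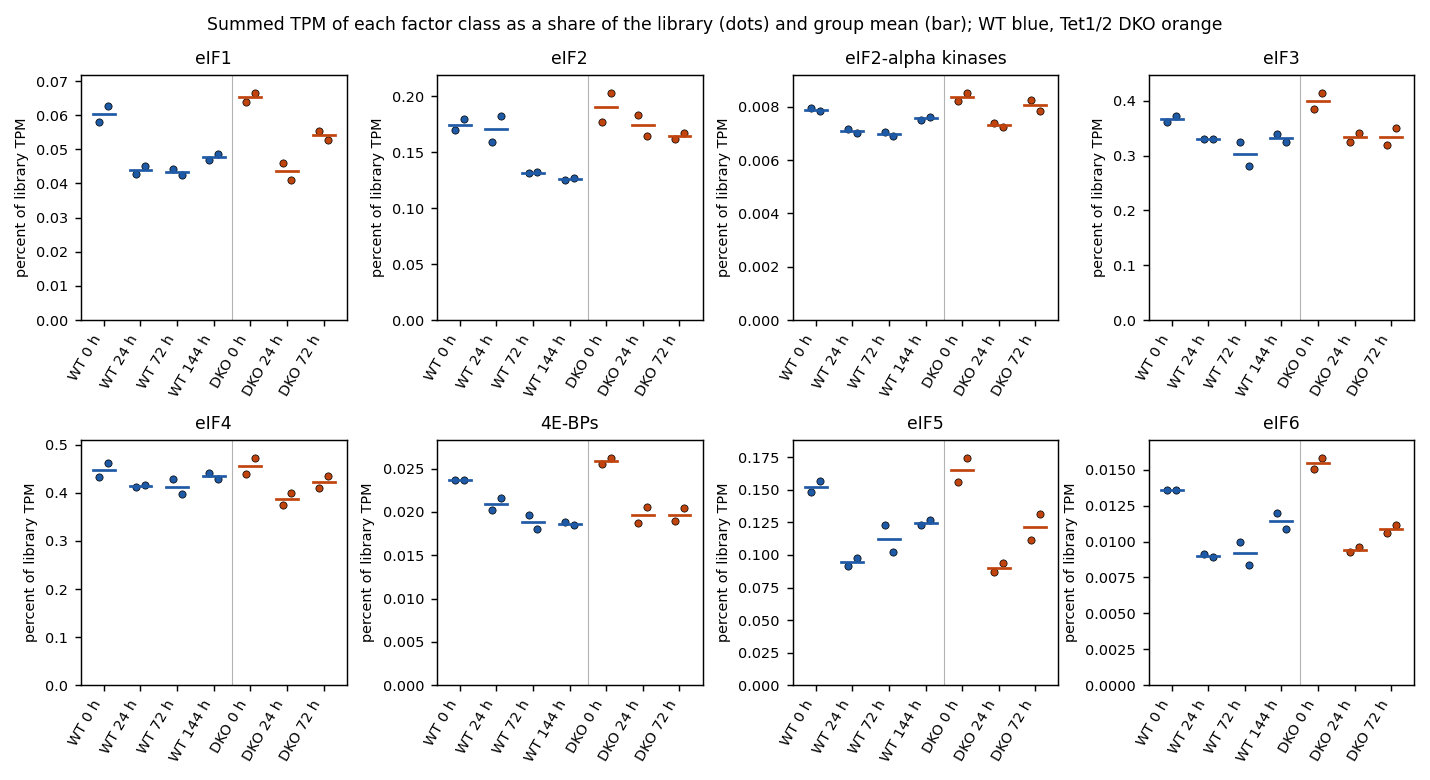
Summed deposited TPM of each factor class as a percent of the library (y axis, from 0) in the 7 groups (x axis); dots are the 2 libraries of a group and bars their mean, WT in blue and Tet1/2 DKO in orange. The eIF5 class drops at 24 h in both genotypes and is higher again at 144 h in WT, while the eIF4 class spans 0.374% to 0.472% and lies below untreated cells at 24 and 72 h.

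Among the members themselves, levels in untreated WT cells spanned more than 4 orders of magnitude per length. Eif4a1, the main eIF4A helicase gene, stood first with 1893 ± 92.6 deposited TPM (SD, n = 2), followed by Eif5a (1247 ± 19.7), which serves translation elongation despite its name, and by Eif2s2, eIF2-beta (738 ± 27.8). These 3 did not overlap with their neighbours in the order. Eif4a2 (569 ± 87.5), Eif1 (499 ± 30.5), Eif4g2 (483 ± 39.2) and Eif3k (471 ± 24.0) came next, and each of them overlapped with the one below it down to Eif3k. Of the 14 eIF3 genes, 11 lay between 212 and 471 TPM, and the kinases between 9.42 and 35.8 TPM. Eif4g3, the least abundant eIF4G gene, had 4.07 ± 0.721 TPM, and Eif4ebp3, Eif4e3 and Eif2c5 were below 1 TPM.

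In WT cells under mTORi, a fit without replicate blocks called few initiation factor RNAs lower at 24 and 72 h on the spike-in scale. It called most of them lower at 144 h, while 1 rose. The early counts were higher with such blocks, as given below. After 24 h, 7 of 52 members had a limma adjusted p under 0.05 and lower levels (8.73% of all genes did), and 1 was higher (1.25% of all genes). The median member changed by −0.61 on the log2 scale, and 37 of 52 lay below the median of all genes. After 72 h, 10 members were lower by this rule (7.6% of all genes) against 1 higher (0.697%), with a median of −0.69. After 144 h, 44 members were lower (50.5% of all genes) against 1 higher (0.461%), with a median of −1.15, and 44 lay below the all-gene median. Eif2s3x, Eif4e2, Eif4ebp1, Eif5a and Eif6 were called lower at all 3 times, and Eif4g3 was called higher at all 3.

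The study states that time points of a replicate were handled in parallel, and not whether this held across genotypes. With the replicate number as a block within each genotype (the pairing block, a choice made from how replicate differences correlated), 27 members passed as lower after 24 h (25.7% of all genes), 36 after 72 h (25.4%) and 49 after 144 h (66.3%), each time beside 1 higher (4.48%, 2.85% and 1.05%). The unblocked early counts rested on single libraries. The number of all genes with an unadjusted p under 0.05 fell or rose in the same settings, so these moves were not particular to the members. After 24 h, 0 members were called lower without either WT 0 h library or without WT 24 h replicate 1, so that every lower call named for that time was lost there, and 22 were called without either DKO 24 h library. After 72 h the count was 0 without either WT 0 h library or WT 72 h replicate 2, 3 without WT 72 h replicate 1, 6 without either WT 144 h library and 28 without either DKO 24 h library. After 144 h it stayed between 31 and 47.

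In deposited TPM, which have the same sum in each library, the members divided. After 24 h, 21 passed as lower (14.1% of all genes) beside 5 as higher (15.8%). After 72 h the numbers were 21 (11.4% of all genes) and 2 (12.6%), and after 144 h 14 (11.7%) and 6 (15.6%). The members had medians of −0.23, −0.26 and −0.13, next to −0.0077, 0.039 and 0.055 for all genes. Among the 14 lower calls of 144 h, 8 belonged to the eIF2 class (3 eIF2 subunits, 4 eIF2B subunits and Eif2a) and 2 to the eIF2-alpha kinases. Among the 6 higher calls, 4 were eIF4 genes (Eif4a2, Eif4b, Eif4enif1, Eif4g3) and 2 the other kinases (Eif2ak3, Eif2ak4).

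In DKO cells 26 of 52 members were called lower after 24 h (18.7% of all genes) beside 1 higher (0.505%), with a median of −0.88. After 72 h a single lower call (1 member, 2.95% of all genes) stood beside 1 higher call (0.713%). The median member then changed by −0.53, next to −0.12 for all genes, and 43 of 52 lay below that all-gene value. With the pairing block, 39 were lower after 24 h (38.1% of all genes) and 17 after 72 h (13.2%), each beside 1 higher (1.95% and 5.34%). The unblocked count for 24 h was 4 without DKO 0 h replicate 1, 11 without DKO 0 h replicate 2, 44 without DKO 24 h replicate 1 and 3 without DKO 24 h replicate 2. The last 2 libraries are the pair whose spike-in factors differ most. The count for 72 h was 0 without any library of WT 0, 72 or 144 h or of DKO 0 or 72 h, and 10 without either DKO 24 h library. The number of all genes with an unadjusted p under 0.05 moved with these counts, except at 72 h without DKO 72 h replicate 1, where it rose. In deposited TPM the DKO calls after 24 h were 21 lower (13.3% of all genes) against 3 higher (11.6%), and after 72 h they were 17 (9.06%) against 3 (17.2%). Eif4ebp1 (lower) and Eif4g3 (higher) were called in all 5 comparisons with untreated cells, on both scales, at the filter and pseudocount used here. With no filter on low values, Eif4ebp1 missed the threshold at WT 24 h and DKO 72 h (adjusted p = 0.059 and 0.08) and Eif4g3 missed it in DKO cells at both times (adjusted p = 0.11 and 0.071). With a pseudocount of 0.1, Eif4ebp1 missed it at DKO 72 h (adjusted p = 0.054).

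**Figure D2:**
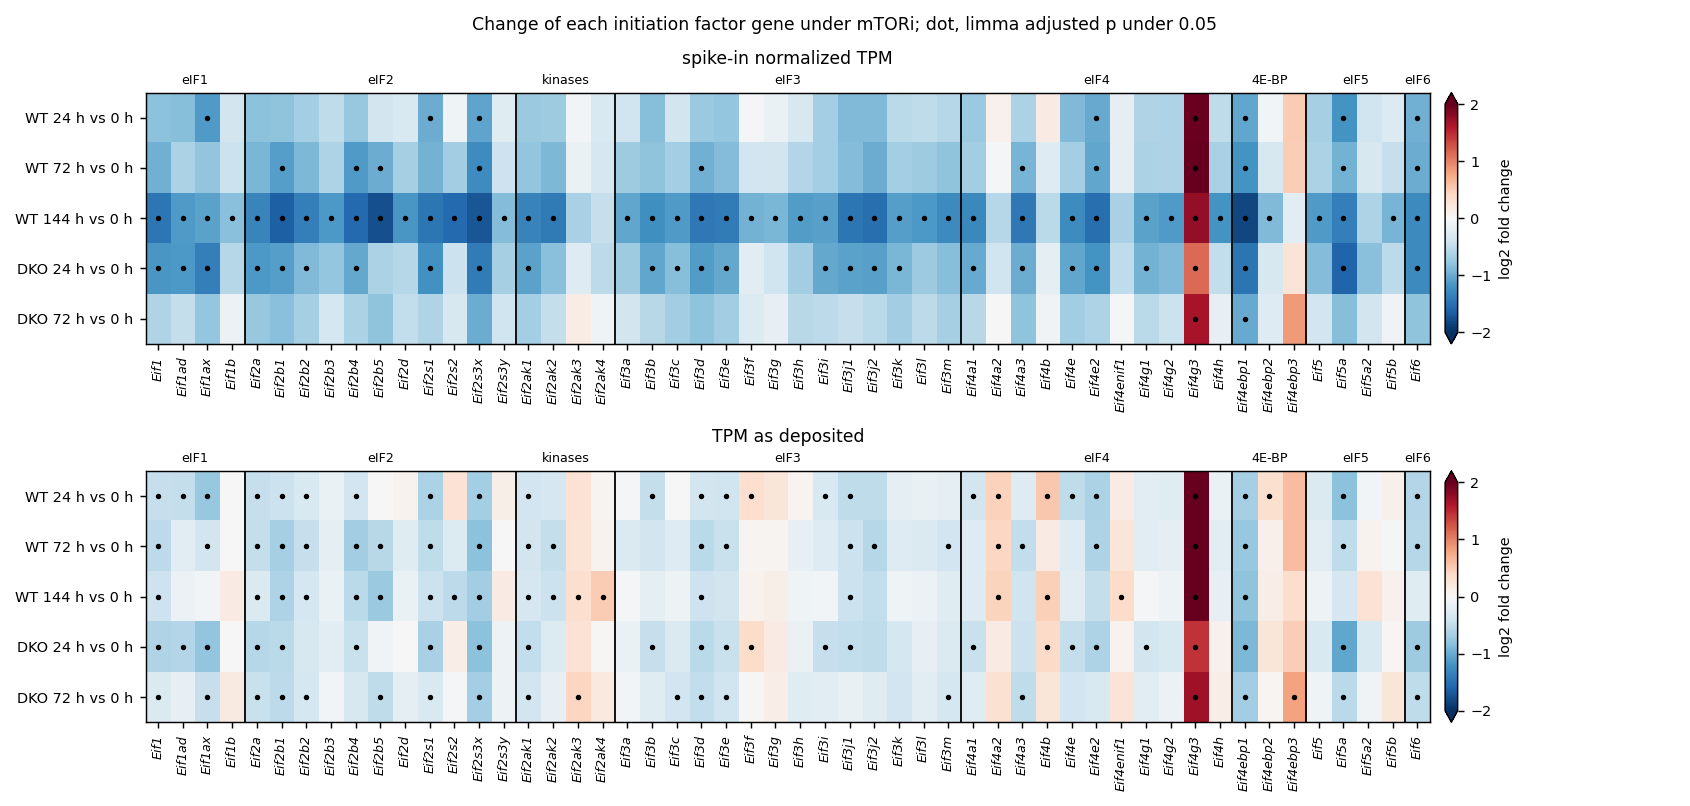
Log2 fold change against 0 h of the same genotype (colour, −2 to 2) for the 52 members tested (x axis, by class) in 5 comparisons (rows), with spike-in normalized TPM above and deposited TPM below; a dot marks a limma adjusted p under 0.05. Nearly every cell of the WT 144 h row is blue and dotted in the upper panel, the lower panel holds both colours, and Eif4g3 is red in all rows of both.

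Of the eIF4F genes, the scaffold genes moved apart. Eif4g3 (chr4:137993022-138208508, plus strand, GRCm38) encodes the scaffold eIF4G3, a paralog of eIF4G1. In WT it had 7.51 and 9.66 spike-in normalized TPM at 0 h, 33.0 and 39.9 at 24 h, 52.7 and 46.3 at 72 h, then 31.6 and 30.8 at 144 h. All 6 treated libraries lay above both untreated ones. DKO cells had 7.02 and 3.70 at 0 h, 16.8 and 9.19 at 24 h, then 24.9 and 13.2 at 72 h, again without overlap between treated and untreated libraries. The log2 fold changes in WT were 1.97, 2.40 and 1.76 (SE 0.37, limma adjusted p = 0.0027, 0.00093 and 0.0012) at 24, 72 and 144 h, and those in DKO cells were 1.13 and 1.64 (adjusted p = 0.036 and 0.017, and 0.11 and 0.071 with no filter on low values). In deposited TPM they were 2.21, 2.69 and 2.63 in WT and 1.44 and 1.70 in DKO cells, with a SE of 0.17. The WT calls held without each of the 14 libraries. The DKO call at 24 h was lost without either WT 72 h library, either WT 144 h library, DKO 0 h replicate 2 or DKO 24 h replicate 1 (largest adjusted p = 0.25), and that at 72 h without DKO 0 h replicate 2 or DKO 72 h replicate 1 (largest adjusted p = 0.2). A gene on the opposite strand, 1700095J12Rik, overlaps Eif4g3 and was at 0 in 13 of 14 libraries.

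The major scaffold gene Eif4g1 (chr16:20668313-20692884, plus strand) had lower values under mTORi. It had 852 and 810 spike-in normalized TPM at 0 h, 479 and 629 at 24 h, 614 and 465 at 72 h, then 427 and 369 at 144 h in WT. In DKO cells at 24 h Eif4g1 was called lower on both scales, with mean levels of 0.526 (spike-in) and 0.776 (deposited TPM) of those at 0 h. With the pairing block it was called lower at all 3 WT times on the spike-in scale. Its log2 fold change was −1.06 at 144 h (adjusted p = 0.0042, and 0.058 without WT 144 h replicate 2) and −0.04 in deposited TPM. Eif4g2, which encodes the eIF4G-like protein DAP5 that does not bind eIF4E, gave −1.13 at 144 h (adjusted p = 0.0065, and 0.055 without WT 0 h replicate 2) and −0.10 in deposited TPM, which was not called. The ratio of Eif4g3 to Eif4g1 within a library, which no scaling affects, was 0.00881 and 0.0119 at 0 h and between 0.0635 and 0.0996 in the 6 treated WT libraries. In DKO cells it was 0.00660 and 0.00385 at 0 h and between 0.0204 and 0.0309 in the 4 treated libraries, so that Eif4g1 stayed by far the more abundant RNA per length in all libraries.

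The helicase genes showed a smaller shift between paralogs. Eif4a1 (chr11:69666936-69672423, minus strand) had 3857 and 4134 spike-in normalized TPM at 0 h, 2125 and 2696 at 24 h, then 1766 and 1526 at 144 h in WT. It was called lower at 144 h (−1.28, adjusted p = 0.002) and in DKO cells at 24 h (−1.01, adjusted p = 0.02, and 0.17, 0.072 and 0.19 without DKO 0 h replicate 1, DKO 0 h replicate 2 and DKO 24 h replicate 2), and in deposited TPM at 24 h in both genotypes (−0.37 and −0.44). With the pairing block Eif4a1 was called lower at WT 24 and 72 h as well on the spike-in scale. Its paralog Eif4a2 (chr16:23107444-23114136, plus strand) had 1070 and 1331 at 0 h, 1101 and 1465 at 24 h, then 824 and 777 at 144 h. On the spike-in scale it fitted at 0.09, −0.02 and −0.58 in WT. The last value was not called without the block (adjusted p = 0.091) and was called with the pairing block (adjusted p = 0.028) and without either DKO 24 h library (adjusted p = 0.047). Eif4a2 was called higher at all 3 WT times in deposited TPM (0.46, 0.41 and 0.45, adjusted p = 0.012, 0.027 and 0.016). The ratio of Eif4a2 to Eif4a1 was 0.278 and 0.322 at 0 h and between 0.419 and 0.544 in treated WT libraries. DKO libraries gave 0.265 and 0.270 at 0 h and 0.373 to 0.407 under mTORi. These paralogs share sequence, and Eif4a2 hosts small nucleolar RNAs and overlaps Rfc4 on the other strand, so reads of these genes may have been divided between them.

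Of the helicase cofactors, Eif4b, whose product stimulates eIF4A, fitted at 0.16, −0.26 and −0.54 in WT on the spike-in scale, where the value at 144 h had an adjusted p of 0.11, and of 0.043 with the pairing block. It fitted at 0.54, 0.16 and 0.48 in deposited TPM, where it was called higher at 24 h (adjusted p = 0.0022) and 144 h (adjusted p = 0.0047). Its deposited TPM were 313 and 333 at 0 h, then 464 and 439 at 144 h. The cap-binding gene Eif4e (chr3:138526179-138559696, plus strand) had 171 and 174 spike-in normalized TPM at 0 h, then 73.0 and 70.8 at 144 h in WT (−1.25, adjusted p = 0.0025), and fitted at −0.23 in deposited TPM, which was not called. In deposited TPM Eif4e was called lower at 24 h in both genotypes, with mean levels of 0.701 (WT) and 0.716 (DKO) of those at 0 h. On the spike-in scale it was also called in DKO cells at 24 h (0.493 of 0 h), and with the pairing block at all 3 WT times. Eif4e2, which encodes the cap-binding repressor 4EHP, was called lower at all 3 WT times (adjusted p = 0.018, 0.019 and 0.00034), with 470 and 396 spike-in normalized TPM at 0 h, 207 and 222 at 24 h, then 152 and 152 at 144 h and log2 fold changes of −1.04 and −1.50 at 72 and 144 h, and in DKO cells at 24 h (−1.19, adjusted p = 0.0044). In deposited TPM Eif4e2 was called at 24 and 72 h in WT (−0.63 and −0.61, adjusted p = 0.019 and 0.027) and not at 144 h (−0.47, adjusted p = 0.065), where it was called with the pairing block. Eif4enif1, the eIF4E transporter gene, changed by −0.65 at 144 h on the spike-in scale (adjusted p = 0.06, 0.012 with the block, 0.024 without either DKO 24 h library and 0.045 without either DKO 72 h library) and by 0.36 in deposited TPM (adjusted p = 0.02).

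**Figure D3:**
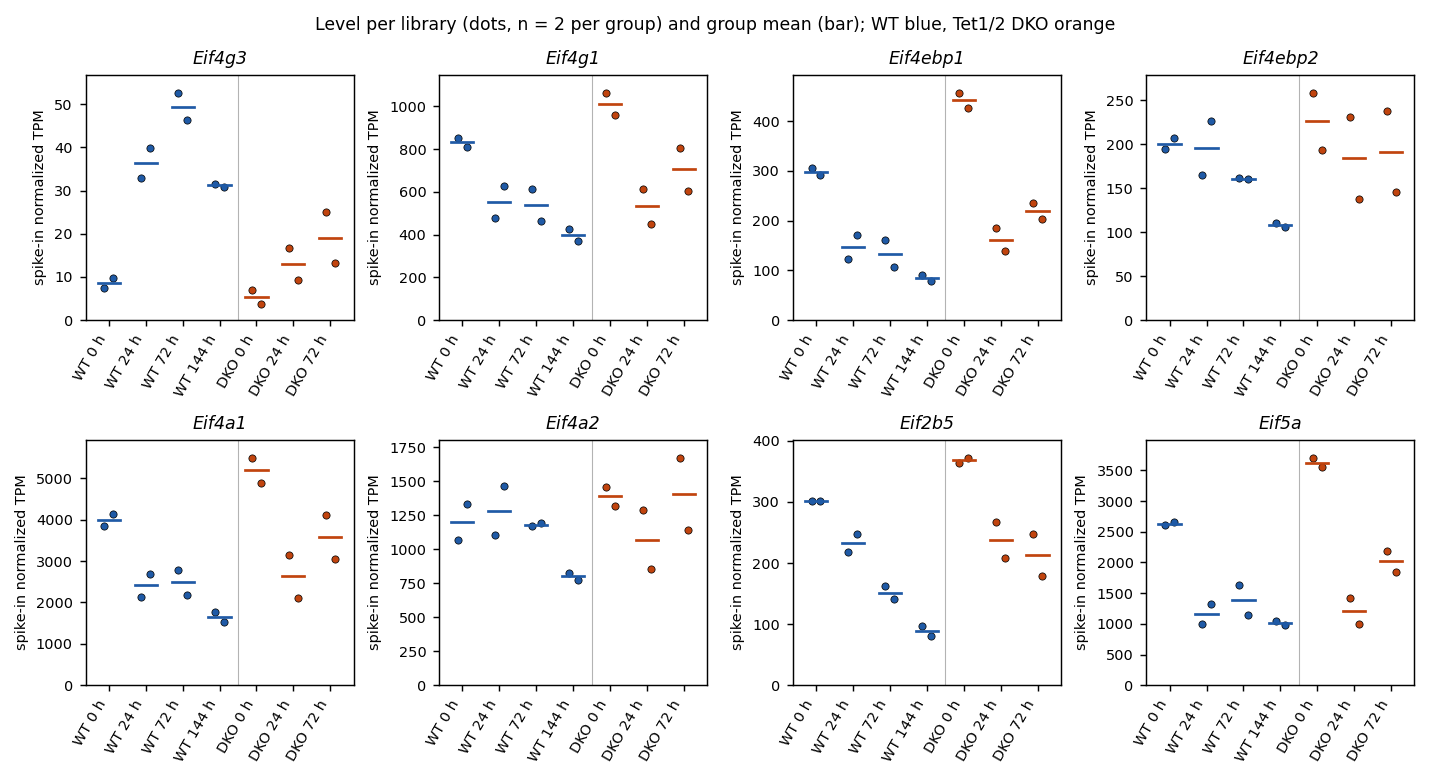
Spike-in normalized TPM (y axis, linear from 0) of 8 members in the 7 groups (x axis); dots are the 2 libraries of a group and bars their mean, WT in blue and Tet1/2 DKO in orange. Eif4g3 is the panel in which every treated library lies above the untreated ones of its genotype, and Eif4ebp1 one in which every treated library lies below them.

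Of the 4E-BPs, the targets of mTORC1 that restrain eIF4E, Eif4ebp1 fell at every time and Eif4ebp2 was called lower at 144 h. Eif4ebp1 (chr8:27260329-27276674, plus strand) had 305 and 292 spike-in normalized TPM at 0 h, 123 and 170 at 24 h, 160 and 106 at 72 h, then 90.1 and 77.7 at 144 h in WT. DKO cells had 457 and 427, then 184 and 138, then 235 and 204. In both genotypes all treated libraries lay below the untreated ones. The log2 fold changes were −1.04, −1.19 and −1.82 in WT (SE 0.27, adjusted p = 0.021, 0.013 and 0.00012) and −1.46 and −1.01 in DKO cells (adjusted p = 0.0017 and 0.044), and −0.66 to −0.89 in deposited TPM. The WT 144 h and DKO 24 h calls held without each of the 14 libraries, those at WT 24 and 72 h in 11 of 14 and that at DKO 72 h in 4 of 14. The WT 24 h call was lost without either WT 0 h library or WT 24 h replicate 1 (largest adjusted p = 0.26), and also with no filter on low values (adjusted p = 0.059), as was the DKO 72 h call (adjusted p = 0.08).

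Eif4ebp2 (chr10:61428491-61452661, minus strand) had 194 and 207 spike-in normalized TPM at 0 h, 165 and 226 at 24 h, 162 and 160 at 72 h, then 110 and 106 at 144 h in WT. It was called lower at 144 h (−0.89, SE 0.30, adjusted p = 0.02). That call was lost without any of the 4 WT 0 h and 144 h libraries (adjusted p = 0.063, 0.11, 0.076 and 0.1), and in deposited TPM the change was 0.32 at 24 h (adjusted p = 0.023) and 0.13 at 144 h, which was not called. The ratio of Eif4ebp2 to Eif4ebp1 was 0.637 and 0.710 at 0 h and between 1.01 and 1.51 in the 6 treated WT libraries, so that Eif4ebp2 was there the more abundant RNA of the pair per length. DKO libraries gave 0.565 and 0.452 at 0 h, 1.25 and 0.998 at 24 h, then 1.01 and 0.715 at 72 h. Eif4ebp3 stayed between 0.855 and 6.61 spike-in normalized TPM and was not called on that scale. It overlaps Ankhd1 on the same strand, and in deposited TPM it was called higher in DKO cells at 72 h (0.81, adjusted p = 0.032). Per unit of Eif4ebp1 RNA, Eif4e RNA was 0.561 and 0.597 at 0 h, then 0.811 and 0.912 at 144 h in WT. Per unit of Eif4ebp2 RNA it was 0.881 and 0.841 at 0 h, 0.494 and 0.474 at 24 h, 0.838 and 0.534 at 72 h, then 0.665 and 0.669 at 144 h, so that the ratios to the 4E-BP genes moved in opposite directions.

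**Figure D4:**
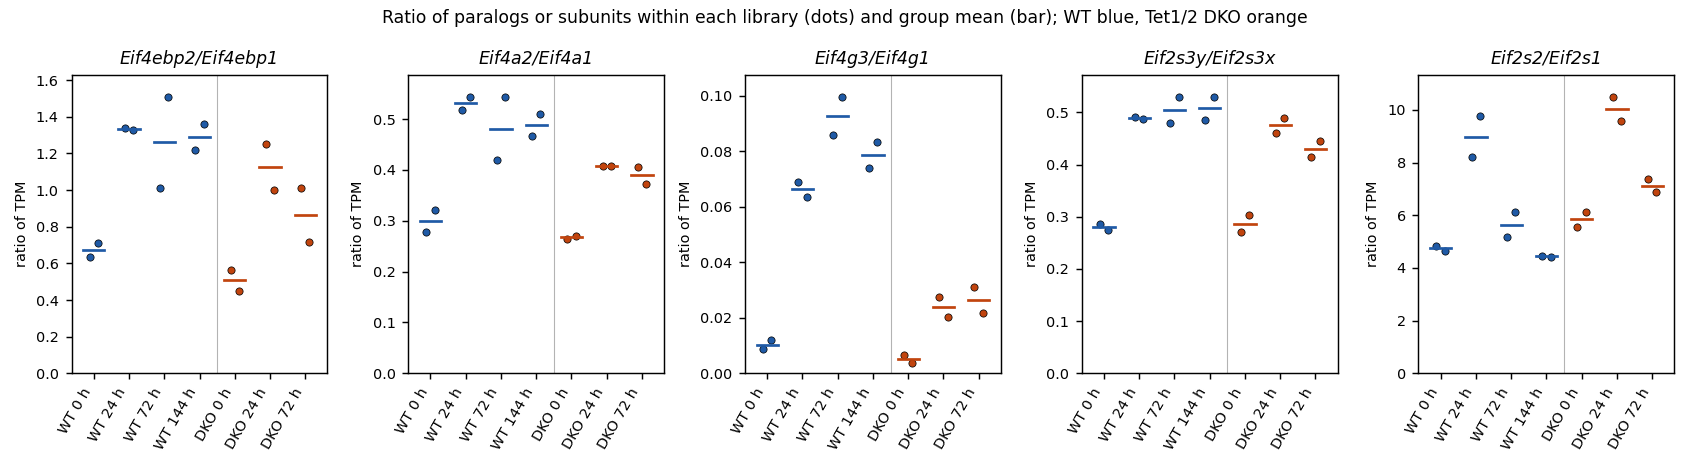
Ratio of deposited TPM of 2 members within a library (y axis, linear from 0) in the 7 groups (x axis); dots are libraries and bars their mean, WT in blue and Tet1/2 DKO in orange. The first 4 ratios are higher in every treated library than in the untreated ones of the same genotype, while Eif2s2 over Eif2s1 peaks at 24 h.

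In the eIF2 class 11 of 11 tested members were called lower at 144 h in WT, where 50.5% of all genes were, with a median of −1.45 beside −0.83 for all genes. The count was 9 without WT 144 h replicate 2 and 10 without WT 144 h replicate 1 or either WT 0 h library. In deposited TPM 8 of 11 were called lower, where 11.7% of all genes were, with a median of −0.43 beside 0.055. Eif2s1, which encodes the eIF2-alpha subunit that the stress kinases phosphorylate, had 313 and 345 spike-in normalized TPM at 0 h, 139 and 193 at 24 h, then 119 and 120 at 144 h in WT. It was called at 24 h (adjusted p = 0.035, mean level 0.505 of that at 0 h), missed the threshold at 72 h (log2 fold change −0.94, adjusted p = 0.051, and 0.0047 with the pairing block) and was called at 144 h (−1.45, adjusted p = 0.00099). In deposited TPM it was called at all 3 times (−0.63, −0.52 and −0.43). The X-linked eIF2-gamma gene Eif2s3x was called lower at all 3 WT times (−1.05, −1.25 and −1.71). Its Y-linked copy Eif2s3y fitted at −0.25, −0.41 and −0.86, called at 144 h (adjusted p = 0.019, and 0.061 to 0.12 without any of the 4 WT 0 h and 144 h libraries). In deposited TPM Eif2s3x was called at all 3 times (−0.67, −0.83 and −0.69), whereas Eif2s3y had values above 0 (0.12, 0.01 and 0.16) and was not called. The ratio of Eif2s3y to Eif2s3x was 0.287 and 0.275 at 0 h, between 0.480 and 0.530 in treated WT libraries, 0.270 and 0.304 in untreated DKO and 0.415 to 0.490 in treated DKO libraries. Both genes carry the pyrimidine tract shown above, and reads common to the copies cannot be assigned from these tables.

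Eif2s2, eIF2-beta, was not called at 24 h. It had 1517 and 1600 spike-in normalized TPM at 0 h, 1141 and 1885 at 24 h, 960 and 954 at 72 h, then 531 and 528 at 144 h in WT, with changes of −0.09, −0.70 and −1.55 (adjusted p = 0.89, 0.17 and 0.0011, the second 0.046 with the pairing block). The ratio of Eif2s2 to Eif2s1 was 4.85 and 4.64 at 0 h, 8.20 and 9.77 at 24 h, then 4.47 and 4.40 at 144 h. DKO libraries gave 5.56 and 6.13, then 10.5 and 9.56, then 7.36 and 6.88, and the 24 h libraries of both genotypes stood above all others of their genotype.

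Eif2b5, which encodes the catalytic subunit of the eIF2B exchange factor, was called lower at 72 and 144 h. It had 301 and 301 spike-in normalized TPM at 0 h, 219 and 247 at 24 h, 162 and 142 at 72 h, then 96.3 and 80.5 at 144 h in WT, and the values of successive times did not overlap. Its log2 fold changes were −0.37, −0.99 and −1.76 (SE 0.26, adjusted p = 0.37, 0.023 and 9.8e-05). In deposited TPM Eif2b5 changed by −0.56 at 72 h, −0.74 at 144 h and −0.50 at 72 h in DKO cells, each called, and by less than 0.1 at 24 h in either genotype. Of the other 4 eIF2B genes, Eif2b1 and Eif2b4 were called lower at 72 h (−1.09 and −1.13), whereas Eif2b2 (−0.89, adjusted p = 0.053) and Eif2b3 (−0.62, adjusted p = 0.18) were called there on the spike-in scale with the pairing block (adjusted p = 0.0046 and 0.04). In deposited TPM Eif2b2 was called at 72 h without the block (−0.47, adjusted p = 0.01). At 144 h Eif2b1, Eif2b2, Eif2b3 and Eif2b4 were called (−1.63, −1.36, −1.14 and −1.55), and the call of Eif2b3 was lost without WT 144 h replicate 2 (adjusted p = 0.054). In deposited TPM Eif2b3 was not called at 144 h (−0.13), and the other 3 were.

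Of the 4 eIF2-alpha kinases, 2 were called lower at 144 h in WT on the spike-in scale, and 3 with the pairing block (50.5% and 66.3% of all genes were). Eif2ak1, the heme-regulated kinase HRI, had 78.5 and 72.6 spike-in normalized TPM at 0 h, then 30 and 28.4 at 144 h in WT (−1.34, adjusted p = 0.0016). Eif2ak2, the kinase PKR that senses double-stranded RNA, had 36.9 and 35.1 and then 13.4 and 12.3 (−1.42, adjusted p = 0.0025). Both were also called lower in deposited TPM at 144 h (−0.33 and −0.43).
Eif2ak3, the ER stress kinase PERK, had 32.4 and 37.9 at 0 h, then 22.4 and 21.7 at 144 h (−0.64, adjusted p = 0.099, which was 0.013 with the pairing block and 0.041 without either DKO 24 h library). Eif2ak4, the amino acid sensor GCN2, had 20.2 and 19.6 and then 14.5 and 14 (−0.45, adjusted p = 0.24, and 0.076 with the block). In deposited TPM these directions turned, and at 144 h Eif2ak3 (0.34, adjusted p = 0.032) and Eif2ak4 (0.50, adjusted p = 0.0063) were called higher.

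The eIF3 subunits, which form the scaffold between the small ribosomal subunit and eIF4G, lay within a narrow range. All 14 were called lower at 144 h in WT, with log2 fold changes from −1.51 to −0.92 and a median of −1.14, against −0.83 for all genes, of which 50.5% were called lower. The count was 9 of 14 without WT 144 h replicate 2, where Eif3a, Eif3c, Eif3f, Eif3g and Eif3l were lost, and 13 without WT 144 h replicate 1 or either WT 0 h library. In deposited TPM 2 of the 14 were called lower (11.7% of all genes), with a median of −0.11. Eif3a, the largest subunit, had 643 and 630 spike-in normalized TPM at 0 h, then 333 and 286 at 144 h (−1.04, adjusted p = 0.0054, and 0.065 without WT 144 h replicate 2). Eif3e gave −1.40 (adjusted p = 0.0018), and Eif3j1, which encodes a loosely attached subunit and has a near-identical copy in Eif3j2, gave −1.44 (adjusted p = 0.0022). In deposited TPM Eif3j1 was called at 144 h (−0.43), and Eif3a (−0.02) and Eif3e (−0.37) were not. Eif3e was called lower in deposited TPM at 24 and 72 h in both genotypes, and at 144 h in WT with the pairing block. Eif3f, with the pyrimidine tract at its start, had 255 and 306 at 0 h, then 238 and 316 at 24 h in WT, where the ranges overlapped, and was called higher at 24 h in deposited TPM in WT (0.34, adjusted p = 0.037) and DKO cells (0.36, adjusted p = 0.035). Its call at 144 h on the spike-in scale was lost without WT 0 h replicate 2 or either WT 144 h library (adjusted p = 0.12, 0.05 and 0.1).

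Of the eIF1 class, which includes the start codon selection genes Eif1 and Eif1ax, 4 of 4 were called lower at 144 h in WT, and of the eIF5 genes 3 of 4 (50.5% of all genes were). The eIF1 count was 2 without WT 0 h replicate 2 or either WT 144 h library and 3 without WT 0 h replicate 1. The eIF5 count was 1 without WT 144 h replicate 2 and 2 without each of the other 3 libraries. In deposited TPM limma called 1 of 4 eIF1 genes and 0 of 4 eIF5 genes lower (11.7% of all genes), and 1 eIF5 gene had an unadjusted p under 0.05, as did 7235 of the 18232 genes tested. Eif1, which guards start codon fidelity, gave −0.83, −0.96 and −1.44 in WT (adjusted p = 0.088, 0.057 and 0.0014, of which the first 2 were 0.011 and 0.0051 with the pairing block), with 1007 and 1098 spike-in normalized TPM at 0 h, then 393 and 382 at 144 h. Eif1ax, which encodes eIF1A, was called at 24 h (−1.13, adjusted p = 0.025) and at 144 h (−1.06, adjusted p = 0.0094), and the latter call was lost without WT 0 h replicate 2 or either WT 144 h library (adjusted p = 0.097, 0.067 and 0.052). Eif5, the GTPase activator of eIF2, gave −1.13 at 144 h (adjusted p = 0.012), lost without the same 3 libraries (adjusted p = 0.12, 0.06 and 0.054). Eif5b, which encodes the GTPase of subunit joining, gave −0.93 at 144 h (adjusted p = 0.011), lost without WT 0 h replicate 1 or WT 144 h replicate 2 (adjusted p = 0.095 and 0.089). With the pairing block Eif1ax and Eif5 were called lower at WT 24, 72 and 144 h on the spike-in scale. In deposited TPM at 144 h Eif1 remained called (−0.41), whereas Eif1ax (−0.05), Eif5 (−0.10) and Eif5b (0.09) were not.

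Eif5a and Eif6 fell early. Eif5a (chr11:69916714-69921958, minus strand) had 2603 and 2662 spike-in normalized TPM at 0 h, 994 and 1328 at 24 h, 1641 and 1144 at 72 h, then 1052 and 987 at 144 h in WT, and 3701 and 3548 at 0 h against 1416 and 1005 at 24 h in DKO cells. Treated and untreated libraries did not overlap. The log2 fold changes were −1.20, −0.94 and −1.37 in WT (adjusted p = 0.0099, 0.041 and 0.001) and −1.60 and −0.85 in DKO cells (adjusted p = 0.00097 and 0.09, the latter 0.02 with the pairing block). In deposited TPM the change of Eif5a was −0.82 at 24 h and −0.34 at 144 h in WT, the former called (adjusted p = 0.0024) and the latter not (adjusted p = 0.11, and 0.042 with the block). Eif5a2, its low-abundance paralog, lay between 3.78 and 11.9 spike-in normalized TPM. It was not called without the pairing block, and with it was called lower at 144 h in WT (−0.62, adjusted p = 0.15 without and 0.028 with the block) and at 24 h in DKO cells (−0.84, adjusted p = 0.11 and 0.0095). Eif6, which keeps free large subunits from joining, gave −0.96, −0.99 and −1.27 in WT (adjusted p = 0.035, 0.035 and 0.0018) and −1.28 in DKO cells at 24 h (adjusted p = 0.0047, and 0.067 and 0.05 without DKO 0 h replicate 1 and DKO 24 h replicate 2). In deposited TPM Eif6 was called at 24 and 72 h in WT (−0.58 and −0.56) and not at 144 h (−0.25, adjusted p = 0.068), where it was called with the block. The WT calls of both genes at 24 h were lost without either WT 0 h library or WT 24 h replicate 1, and that of Eif6 also without WT 24 h replicate 2 (adjusted p = 0.057) or either WT 144 h library (adjusted p = 0.056). At 72 h both calls were lost without any of the WT 0, 72 or 144 h libraries, and that of Eif5a also without either DKO 0 h library (adjusted p = 0.06).

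Changes were also set beside the promoter sequences shown above. At 144 h in WT the 10 tested members with CACGTG had a median log2 fold change of −1.08 and the 33 tested members without it −1.23 on the spike-in scale, and −0.06 and −0.20 in deposited TPM. The 13 tested members with a pyrimidine tract within 5 bases of the start had a median of −1.13 and the 30 others −1.22. These are descriptions, with no test.

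The 3 members that failed the filter were Eif4e1b, Eif4e3 and Eif2c5. Eif4e1b, the germline relative of eIF4E, had 1.41 and 3.11 spike-in normalized TPM at 0 h and 0.0389 to 0.481 in the 6 treated WT libraries, and 1.45 and 1.51 at 0 h against 0.144 to 0.457 in treated DKO libraries. Treated and untreated libraries did not overlap. With no filter on low values its log2 fold changes were −1.35, −1.40 and −1.44 in WT (limma adjusted p = 0.031, 0.038 and 0.0078) and −0.94 and −0.89 in DKO cells (adjusted p = 0.063 and 0.13), on a scale whose added 1 TPM compresses such low values. Eif4e3 lay between 0.364 and 1.74 and Eif2c5, whose symbol is of the series formerly used for Argonaute genes, between 0 and 0.587.

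Comparing DKO with WT cells asks whether the loss of Tet1 and Tet2 altered these genes before or during mTORi. On the spike-in scale limma called 0 of 52 members in either direction at 0, 24 or 72 h (of all genes, 0.0165% passed as lower against 0.0274% as higher at 0 h, 0.0329% against 0.011% at 24 h, and 0.0274% against 0.302% at 72 h). At an unadjusted p under 0.05 there were 2, 1 and 22 members, beside 1523, 755 and 4193 of the 18232 genes tested. The median member differed by 0.37, 0.08 and 0.55, beside 0.29, 0.10 and 0.49 for all genes. The 95% interval of a member's difference was 1.19 wide in the median, so that a difference of the median size could not be resolved. Without either DKO 24 h library, Eif1ad, Eif2b3, Eif2b4, Eif2s2, Eif3j1, Eif3j2 and Eif4e2 were called higher at 72 h. Their log2 fold changes ran from 0.798 (Eif1ad) to 0.949 (Eif2b4). More of all genes also had an unadjusted p under 0.05 in those fits, so the gain was not particular to the members. In deposited TPM 0 of 52 were called at 0 h (0.176% of all genes lower, 0.422% higher), where 5 had an unadjusted p under 0.05, beside 2530 of the 18232 genes tested.

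Eif4g3 had the lowest DKO to WT difference of the 52 members at each time on both scales. It was lower in both DKO libraries than in both WT libraries at each of the 3 times on both scales. The difference was −0.63, −1.47 and −1.39 on the spike-in scale (adjusted p = 0.61, 0.26 and 0.098), with 95% intervals from −1.40 to 0.132, from −2.23 to −0.706 and from −2.16 to −0.628. It was called at 72 h without either DKO 24 h library (adjusted p = 0.021 and 0.022). In deposited TPM it was −0.75, −1.52 and −1.75 (adjusted p = 0.085, 0.0054 and 0.0022), and Eif4g3 was the member called lower at 24 h (0.79% of all genes, beside 0.581% higher) and at 72 h (0.845%). The levels were 23.0 and 21.5 deposited TPM in WT against 7.51 and 6.77 in DKO cells at 24 h, and 31.9 and 31.1 against 9.84 and 7.65 at 72 h. Members called higher in DKO cells in deposited TPM at 72 h (3.17% of all genes) were the eIF2B genes Eif2b3 (0.51, adjusted p = 0.015) and Eif2b4 (0.53, adjusted p = 0.048).

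Whether mTORi changed a member differently in DKO cells was tested as the difference of responses. limma called 0 of 52 members at 24 h and 0 at 72 h on either scale (at most 0.00548% of all genes in either direction), with 0 and 0 at an unadjusted p under 0.05 on the spike-in scale and 1 and 2 in deposited TPM. Of the 18232 genes tested, 223 and 181 had such a p on the spike-in scale and 706 and 676 in deposited TPM. For Eif4g3 the response of DKO cells minus that of WT cells was −0.84 at 24 h (95% interval −1.92 to 0.244) and −0.76 at 72 h (−1.84 to 0.322), and −0.76 and −0.99 in deposited TPM (−1.29 to −0.233 and −1.52 to −0.462), with an adjusted p of 1 in each case. At 0 h the levels of Eif4g3 were 7.02 and 3.70 in DKO against 7.51 and 9.66 in WT cells, without overlap and without a call.

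**Figure D5:**
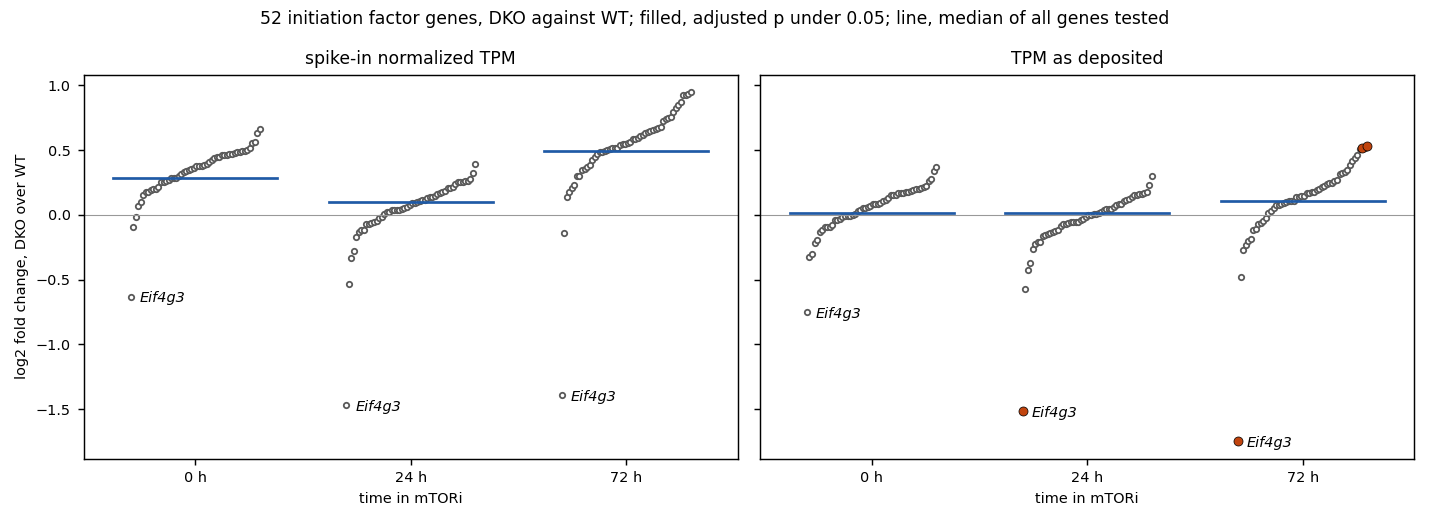
Log2 fold change of DKO over WT (y axis) for the 52 members at 0, 24 and 72 h (x axis), each circle a member in order of its value, with spike-in normalized TPM on the left and deposited TPM on the right; filled circles have a limma adjusted p under 0.05 and the blue line is the median of all genes tested. Eif4g3 is the lowest circle at each time, and the others lie around the line.

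The rest of the translation control pathway was described from lists by role. Of all genes, 50.5% were called lower at 144 h in WT on the spike-in scale, and 11.7% lower and 15.6% higher in deposited TPM, and the counts here are to be read against these shares. Of 16 genes linking mTORC1 to translation, 9 were called lower at 144 h on the spike-in scale (12 with the pairing block, with which 66.3% of all genes were), a share near that of all genes. In deposited TPM 5 of the 16 were called higher, namely Mtor, Rptor, Deptor, Tsc2 and Pdcd4. Pdcd4, which encodes an inhibitor of eIF4A, had 44.9 and 58.4 spike-in normalized TPM at 0 h, 91.5 and 210 at 24 h, 93.5 and 91.1 at 72 h, then 64.3 and 63.0 at 144 h in WT. All 6 treated libraries lay above the untreated ones. It was called at 24 h (1.42, adjusted p = 0.018) and fitted at 0.84 and 0.31 later (adjusted p = 0.15 and 0.48, the former 0.022 with the block), and was called in deposited TPM at all 3 WT times (1.77, 1.24 and 1.31).
Of 8 tested partners of the integrated stress response, 6 were called lower at 144 h. In deposited TPM 1 of the 8 was called lower and 2 were called higher (Gcn1l1 and Ppp1r15a), with a median of −0.0077. Atf4, the transcription factor whose mRNA is translated when eIF2-alpha is phosphorylated, had 435 and 391 spike-in normalized TPM at 0 h, 159 and 211 at 24 h, then 121 and 103 at 144 h in WT, and 713 and 609 at 0 h against 183 and 118 at 24 h in DKO cells. It was called lower in all 5 comparisons (−1.17, −1.35 and −1.88 in WT, −2.16 and −1.87 in DKO cells) and in deposited TPM (−0.79, −0.92, −0.85, −1.58 and −1.56). Of 13 further initiation cofactors, 12 were called lower at 144 h, led by Mcts2 (−2.03, adjusted p = 6e-05). In deposited TPM 3 of 13 were called lower and 1 higher (Paip1). Of 9 elongation and termination factors 6 were called lower at 144 h, while in deposited TPM Eef2 (0.91) and Eef1a1 (0.72) were called higher and 3 lower.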

How the data were processed

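Per the labels and the study's methods, total RNA from sorted cells received ERCC spike-ins, was depleted of ribosomal RNA and sequenced. The authors trimmed reads with cutadapt 2.4, aligned them to mm10 with STAR 2.7.3a and quantified GENCODE VM19 genes with StringTie 2.0, versions as in the submitters' processing notes. The study's methods give other versions of STAR and StringTie. Strand settings of the counting are not given in the sources used here. The deposited TPM sum to 1000000 in each of 14 libraries, so depth is unknown, and 28306 to 29927 genes lay above 0 per library. TPM were summed per gene ID and multiplied by the library's spike-in factor, the median ratio of the authors' normalized table to the deposited TPM over 482 to 539 genes. log2(TPM + 1) of 18232 genes was fitted with limma 3.58.1 (R 4.3.3, trended eBayes) over 7 groups, with Benjamini-Hochberg adjustment and calls at 0.05, so fold changes of low genes are understated. The study's own count test could not be run on TPM. Named genes were a fixed list by role, plus the 2 highest and 2 lowest members at WT 144 h and in DKO against WT at 72 h. Members, lists and tests were chosen with earlier results of these data known. Alternatives were deposited TPM, a pseudocount of 0.1, no filter, replicate blocks and leaving out each library. Scripts were tested on simulated data. Replicates are described as biological and the study's experiments as independently repeated. Whether these libraries came from separate cultures is not given in the sources used here, so p-values measure the spread between these libraries. 1 gene that the rule would match is not reported here. The study states that the time points of a replicate were processed in parallel. Differences between replicates correlated at 0.222 to 0.341 within DKO (3 of 3 pairs of groups) and at 0.0622 to 0.399 within WT (5 of 6 above 0.1), and 10 of 12 pairs across genotypes were below 0, so numbers were blocked within genotype. That choice rests on these correlations, since the statement does not limit the pairing to a genotype, and a block across all libraries was an alternative.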

Additional observations from a re-analysis of the deposited data

How the results depend on the processing

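Counts below are members called lower, then higher, out of 52. They show how calls moved with the setting and are no result about the members. In deposited TPM they were 21 and 5 (WT 24 h), 21 and 2 (WT 72 h), 14 and 6 (WT 144 h), 21 and 3 (DKO 24 h) and 17 and 3 (DKO 72 h), and for DKO against WT they were 1 and 0 (24 h) and 1 and 2 (72 h). Blocking by replicate number inside a genotype gave lower counts of 27, 36 and 17 at WT 24 h, WT 72 h and DKO 72 h, and deposited TPM with that block gave 23 and 7, 28 and 3, 20 and 6, 27 and 5, and 21 and 4. In deposited TPM the number of all genes with an unadjusted limma p under 0.05 also rose with the block, from 7465 to 8507 at WT 24 h. The block across all libraries moved no count by over 1.5 times. With no filter the lower counts were 3, 5, 17 and 0 at WT 24 h, WT 72 h, DKO 24 h and DKO 72 h, and 0 were called higher in DKO at 24 or 72 h, with more genes tested. A pseudocount of 0.1 gave 0 lower at DKO 72 h. The cause of the other moves was not tested.

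Leaving out each library in turn gave, for lower calls, 0 to 22 (WT 24 h), 0 to 28 (WT 72 h), 31 to 47 (WT 144 h), 3 to 44 (DKO 24 h) and 0 to 10 (DKO 72 h), for higher calls 0 to 1 in DKO at 24 and 72 h, and 0 to 1 lower and 0 to 7 higher in DKO against WT at 72 h. Libraries were left out on the spike-in scale only, and a library left alone in its group was assumed to vary like the others. Directions at WT 144 h turned in deposited TPM, with or without the block, for 13 of 52 members, Eif1b (0.16), Eif2s3y (0.16), Eif3f (0.07), Eif3g (0.11), Eif4enif1 (0.36), Eif5b (0.09), Eif2ak3 (0.34), Eif2ak4 (0.50), Eif4a2 (0.45), Eif4b (0.48), Eif4ebp2 (0.13), Eif4ebp3 (0.35) and Eif5a2 (0.29). Among the genes named by rule, they turned for Eif4ebp3 without WT 0 h replicate 2 (0.028) or WT 144 h replicate 2 (0.17; range −0.58 to 0.17 over the 14 libraries). In DKO against WT at 72 h they turned in deposited TPM for 10 members, Eif2a (−0.27), Eif2b2 (−0.11), Eif2s3y (−0.06), Eif3f (−0.12), Eif4a2 (−0.19), Eif4b (−0.046), Eif4e (−0.23), Eif4ebp2 (−0.20), Eif4g1 (−0.027) and Eif5 (−0.069), and among the genes named by rule without DKO 72 h replicate 1 for Eif4a2 (−0.0496) and Eif4ebp2 (−0.14, up to 0.56), without WT 72 h replicate 2 for Eif4e (−0.15, up to 0.51) and Eif5a2 (0.068), and without DKO 72 h replicate 2 for Eif5a2 (0.21, down to −0.49). The members' median in DKO against WT at 24 h was −0.010 in deposited TPM. TPM hold no depth, so no counting error can be given, and with 2 libraries a group only the pooled spread limits the calls.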
